A study of Mus musculus with 6 samples.

Results

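Gata1, Gata2, Klf1, Gfi1b, Nfe2, Tal1, Lyl1, Zfpm1, Lmo2 and Fli1 encode 10 transcription regulators that work as one network in the erythroid, megakaryocyte and mast cell branches of blood formation. They were taken by gene symbol from a table of 55487 mouse genes, where each symbol matched 1 gene. All 10 were among the 18766 genes with a mean value of at least 3 that were tested.

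Total RNA was sequenced from Kit-positive marrow cells of mice, in 6 libraries. The cells had been transduced with a lentivirus that overexpresses MLLT3, either wild type (WT, n = 3) or with the substitutions K63E and K67E (labelled MLLT3 DM, here DM, n = 3). MLLT3 is a subunit of transcription elongation complexes, and its YEATS domain reads acylated histones. After sorting, both groups grew for 8 days in methylcellulose with cytokines that included EPO, SCF, GM-CSF, IL-3, IL-6 and IL-11, each at 20 ng/mL, Flt3L at 10 ng/mL and 4-hydroxytamoxifen at 200 nM, by which the cells' own Mllt3 gene was to be deleted. The 2 groups therefore share the vector, the overexpression, the cytokines in the medium, and the deletion treatment, and differ in the substitutions. The strain and age of the mice, the Cre driver and the species of the vector's MLLT3 sequence are not given in the sources used here. All 6 libraries carry the same batch label. Nothing in the labels says that replicates came from separate mice or cultures, so p-values measure the spread between these libraries.

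GATA1 and GATA2 are zinc finger proteins that bind GATA motifs. GATA2 acts in stem and progenitor cells and in mast cells, and GATA1 takes over its sites as erythroid cells and megakaryocytes mature, helped by the cofactor FOG1, the product of Zfpm1. TAL1 and its paralog LYL1 are basic helix-loop-helix proteins that pair with E proteins on E-box motifs, and LMO2 with LDB1 bridges them to GATA factors. KLF1 drives the globin and red cell membrane genes, GFI1B is a repressor needed for red cells and platelets, NFE2 (the p45 subunit of NF-E2) acts late in platelet formation, and FLI1 is an ETS factor of megakaryocytes and stem cells.

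Some promoters of these genes hold motifs that the network's own proteins bind, in counts that do not set them apart from other promoters. RefSeq promoter sequences (GRCm38.p6) were matched for 7 of the 10 genes, with 9 start sites, and the 250 bases before each start were searched on both strands. A GATA motif was AGATAA or its variant AGATAG, or the same with another first base, TGATAA and its variant TGATAG. The E-box was searched as CAGNTG and the motif of NF-E2 as TGANTCA, and no matches in the windows of these genes overlapped. The 3 windows below are shown because Lyl1 passed the test, Tal1 is its paralog with a change of the opposite sign, and Gfi1b had a GATA match on its own strand. Capitals mark GATA and E-box matches.
Lyl1, chr8:84701207-84701456, plus strand: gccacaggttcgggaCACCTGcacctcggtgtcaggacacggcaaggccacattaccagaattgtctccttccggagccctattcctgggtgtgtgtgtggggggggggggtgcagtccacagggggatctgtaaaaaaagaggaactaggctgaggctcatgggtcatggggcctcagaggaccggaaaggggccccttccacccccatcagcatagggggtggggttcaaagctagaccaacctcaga
Tal1, first start site, chr4:115056176-115056425, plus strand: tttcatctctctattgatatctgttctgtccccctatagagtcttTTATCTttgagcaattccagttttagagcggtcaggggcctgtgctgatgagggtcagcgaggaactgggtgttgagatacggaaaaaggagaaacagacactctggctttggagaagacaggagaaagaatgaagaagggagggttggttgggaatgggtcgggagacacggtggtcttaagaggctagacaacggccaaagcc
Gfi1b, chr2:28621983-28622232, minus strand: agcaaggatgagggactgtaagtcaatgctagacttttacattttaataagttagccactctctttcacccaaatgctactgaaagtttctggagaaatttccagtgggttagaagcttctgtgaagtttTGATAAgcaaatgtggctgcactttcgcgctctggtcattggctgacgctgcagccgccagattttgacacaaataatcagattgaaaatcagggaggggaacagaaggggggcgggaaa
A GATA match was present in 3 of the 9 windows, those of Klf1, Gfi1b and the first start site of Tal1, against 26.5% of all 32851 promoter windows of this length. An E-box match was present in 2, those of Klf1 and Lyl1, against 44.8% of all windows. The GATA match began 205 bases before the start in Tal1, 120 in Gfi1b and 80 in Klf1. No NF-E2 match was found in the 9 windows, against 6.75% of all. A match is a string of letters and not a measured binding site.

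Values were rlog values, a log2 scale on which genes with few reads are drawn toward their own mean, so that their changes are understated. Sequencing depth is unknown. The median over tested genes was between 8.03 and 8.11 in the 6 libraries. Mllt3, the gene targeted for deletion in both groups, to which reads of the vector may map, was 12.64 ± 0.216 (SD, n = 3) in WT and 12.16 ± 0.249 in DM (-0.48, SE 0.137, limma adjusted p 0.0448). That call was lost without WT replicate 1 (-0.36), WT replicate 2 (-0.50), DM replicate 2 (-0.42) or DM replicate 3 (-0.40), and when the filter on the mean (adjusted p 0.0651) or the mean-variance trend (adjusted p 0.0542) was dropped. Kit itself was at 14.39 ± 0.157 in WT and 14.60 ± 0.296 in DM, Ptprc (CD45) was at 13.72 ± 0.105 and 13.94 ± 0.0974, and the T cell gene Cd3e was below the minimum tested (2.75 ± 0.107 in WT, 2.68 ± 0.0518 in DM). In this bulk RNA, fewer cells of a type and less RNA per cell cannot be told apart.

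The 2 regulators that passed the test, Nfe2 and Lyl1, were lower in DM, while the GATA factors themselves stayed within the spread of the replicates. With limma and a Benjamini-Hochberg adjusted p under 0.05 over all tested genes, 2 of the 10 members were called. Of all tested genes 13.9% were called, 9.2% higher in DM and 4.71% lower. The WT and DM libraries did not overlap for 4 of the 10 members (Nfe2, Lyl1, Lmo2 and Tal1), against 35.8% of all tested genes. The median change of the members was -0.06 (-0.20 after quantile normalization, and from -0.14 without DM replicate 1 to -0.02 without DM replicate 2), against 0.01 over all tested genes, and 6 members had a lower and 4 a higher mean in DM. None reached a change of 1 on the log2 scale. Counts this close to the background do not set the 10 genes apart as a group. After quantile normalization across the libraries, 4 members were called (Nfe2, Lyl1, Lmo2 and Fli1), all lower. Over all tested genes that setting called 2654, of which 1362 were higher and 1292 lower. Without it, 1727 were higher and 884 lower, so lower calls became more frequent in general.

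**Figure D1:**
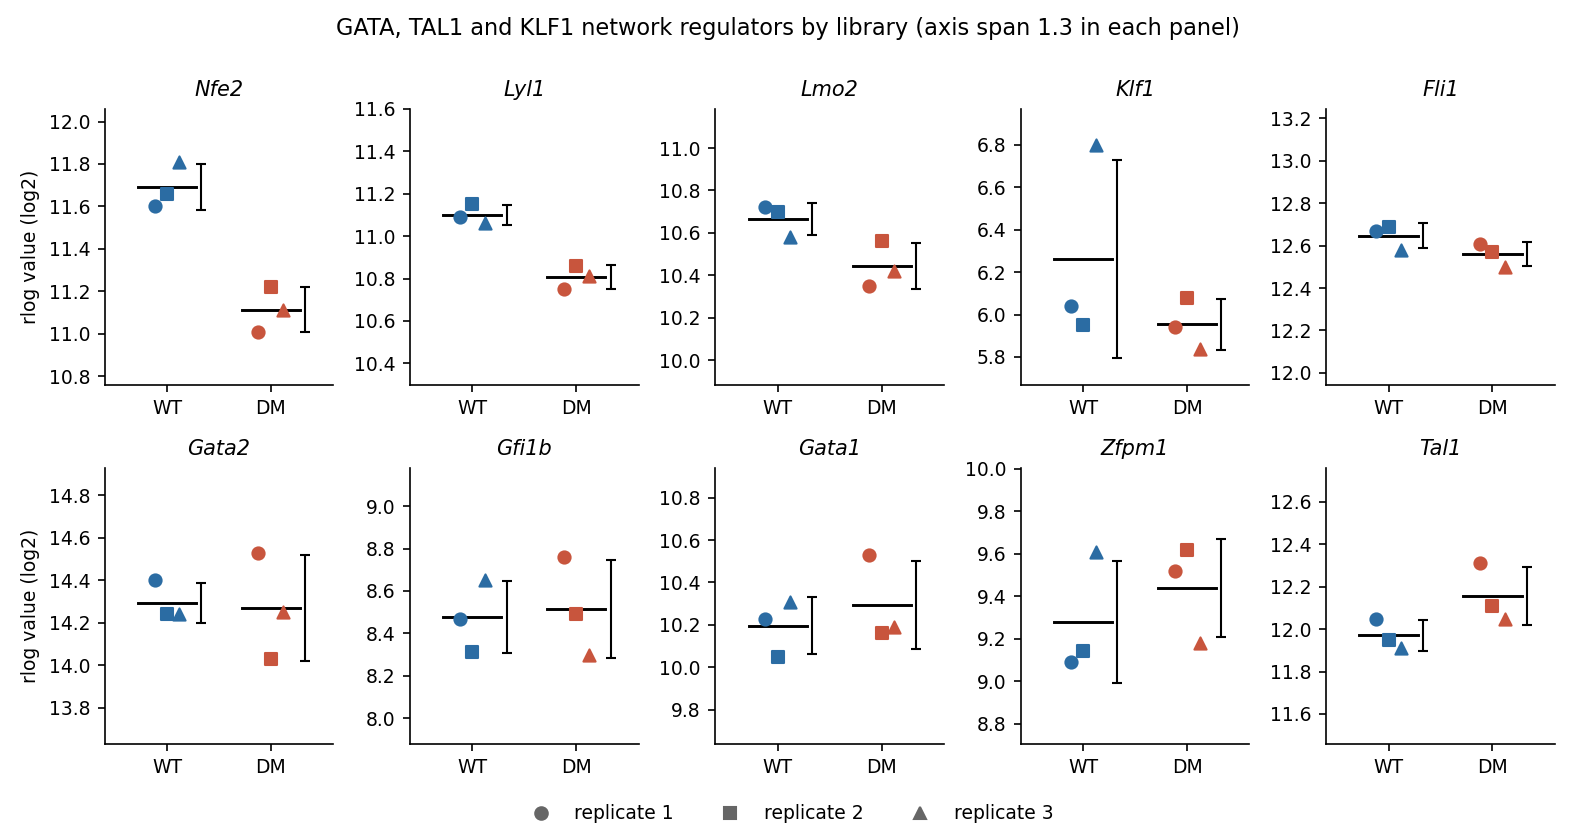
Each panel plots the rlog value (log2) of 1 regulator in the 3 WT and 3 DM libraries, with the group mean as a line and the SD as a bar beside it, on axes of equal span. Nfe2 and Lyl1 separate the groups, Klf1 is high in WT replicate 3 (6.80), and Gata2, Gata1, Gfi1b and Tal1 are highest in DM replicate 1.

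**Figure D2:**
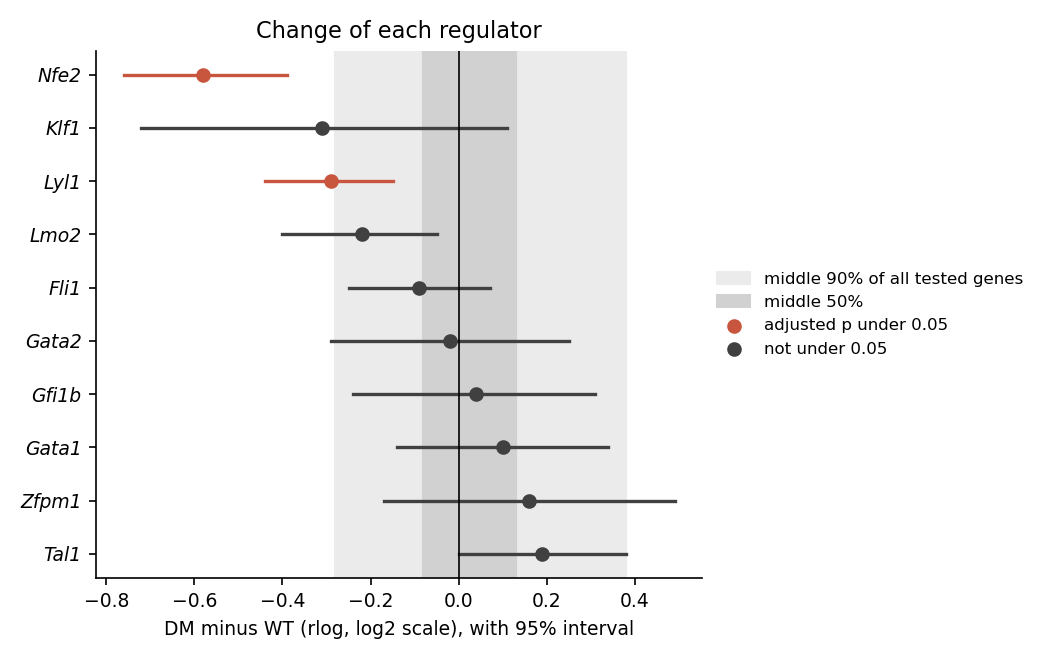
Points give the change of each regulator (DM minus WT, log2 scale) and lines its 95% interval from limma; red marks an adjusted p under 0.05. The grey bands hold the middle 90% (-0.28 to 0.38) and the middle 50% (-0.08 to 0.13) of all tested genes, and Nfe2 (-0.58) lies below both with its whole interval.

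Levels of different genes were compared per length, as the rlog value minus log2 of the summed exon length in kilobases. On this scale Gata2 was the highest of the 10, at 11.86 in WT and 11.84 in DM, which is the 97.8th percentile of tested genes over all 6 libraries. Fli1 followed at 10.85 in WT and 10.76 in DM. Lyl1, Nfe2 and Tal1 came next, and their order was not the same in the groups. In WT, Lyl1 (10.21 to 10.30) overlapped Nfe2 (10.02 to 10.23), and both lay above Tal1 (9.78 to 9.92). In DM, Tal1 (9.92 to 10.18) overlapped Lyl1 (9.90 to 10.01), and both lay above Nfe2 (9.43 to 9.64), which there overlapped Lmo2 (9.23 to 9.45). Lmo2 (9.55 in WT, 9.33 in DM) and Gata1 (8.91 and 9.01) followed, and in DM Gata1 (8.87 to 9.24) overlapped Lmo2. Gfi1b (7.61 and 7.65) and Zfpm1 (7.47 and 7.63) overlapped in both groups. Klf1 was the lowest of the 10, at 5.65 in WT and 5.34 in DM, the 41.7th percentile.

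Nfe2, the haematopoietic subunit of NF-E2, had the largest change of the 10. Its rlog values, here and below in the order of replicates 1, 2 and 3, were 11.60, 11.66 and 11.81 in WT and 11.01, 11.22 and 11.11 in DM. Every DM library was below every WT library. The means were 11.69 ± 0.112 and 11.11 ± 0.104 (SD, n = 3 each), a change of -0.58 (SE 0.0825, 95% interval -0.76 to -0.39, limma adjusted p 0.00361), or 0.671 of the WT level. The call held in all 13 alternatives, with changes from -0.68 to -0.51. Nfe2 (ENSMUSG00000058794.12) lies on chromosome 15 from 103248212 to 103258403, minus strand, in GENCODE M21 on GRCm38, the source of all gene coordinates here.

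NF-E2 is a dimer of p45 with a small Maf protein, and BACH1 and the p45 relatives NRF1 and NRF2 (Nfe2l1, Nfe2l2) share those Maf partners and similar DNA sites. Of the partners, Maff rose, from 8.30, 8.38 and 8.37 in WT to 8.65, 8.88 and 8.79 in DM (0.42, SE 0.0767, limma adjusted p 0.00829), and its call held in all 13 alternatives. Mafk, named with Mafg after its values were seen, differed by 0.21 (adjusted p 0.0628), with libraries that did not overlap, and Mafg by 0.09 (adjusted p 0.477), with libraries that did. Mafk passed in 5 of 13 alternatives and Mafg in none.
Bach1, a repressor at NF-E2 sites, was at 11.17, 11.38 and 11.29 in WT and 11.49, 11.69 and 11.58 in DM (0.31, limma adjusted p 0.033). Nfe2l1 (0.28, adjusted p 0.0384) and Nfe2l2 (0.34, adjusted p 0.032), regulators of proteasome and antioxidant genes that were singled out here after their values were seen, also rose. These 3 calls were less firm than that of Maff. Bach1 was lost without WT replicate 1 (0.25), WT replicate 3 (0.31), DM replicate 2 (0.26) or DM replicate 3 (0.31), and Nfe2l2 without the same libraries (0.28, 0.33, 0.29 and 0.35). Nfe2l1 was lost without any library but WT replicate 2 (0.24 to 0.30), and all 3 were lost after quantile normalization (0.20 for Bach1, 0.16 for Nfe2l1 and 0.22 for Nfe2l2) and without the filter on the mean (adjusted p 0.0766, 0.0814 and 0.0577). Nfe2l3 was below the level tested.

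**Figure D3:**
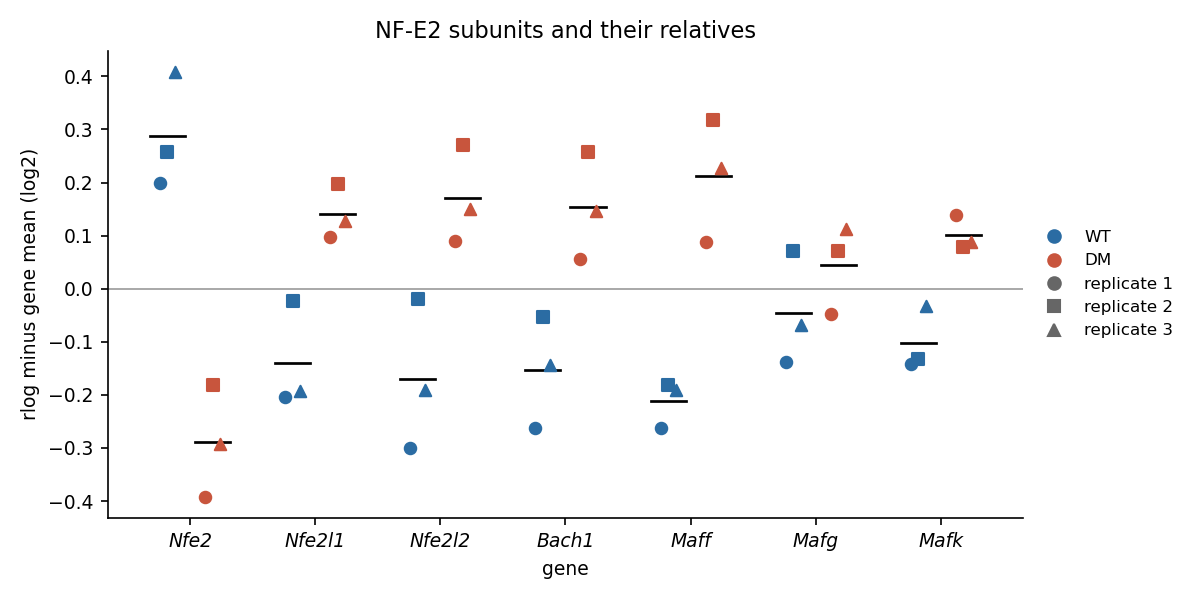
Points give the rlog value minus the mean of the gene over 6 libraries (log2), for Nfe2, 3 genes that share its DNA sites and 3 small Maf genes; blue is WT, red is DM, shapes are replicates and lines are group means. Nfe2 is lower in every DM library, whereas Nfe2l1, Nfe2l2, Bach1, Maff and Mafk are higher in every DM library.

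Lyl1 and Tal1, the paired helix-loop-helix factors, had changes of opposite sign. Lyl1 was at 11.09, 11.15 and 11.06 in WT and 10.75, 10.86 and 10.81 in DM, so that every DM library was lower. The means were 11.10 ± 0.0439 and 10.81 ± 0.0550 (SD, n = 3 each), a change of -0.29 (SE 0.0653, 95% interval -0.44 to -0.15, limma adjusted p 0.0169). Its direction held in all 13 alternatives, but the call did not hold when the filter on the mean was dropped (adjusted p 0.0516). Nor did it hold with WT replicate 1 left out (-0.30, adjusted p 0.0671), nor with any 1 of the DM libraries left out: replicate 1 (-0.26, 0.0671), replicate 2 (-0.32, 0.05) or replicate 3 (-0.29, 0.0617). Lyl1 (ENSMUSG00000034041.5; chromosome 8, 84701457 to 84704715, plus strand) lies within the span of Nfix on the other strand, and whether reads were counted by strand is not given in the sources used here. The exons of the genes overlap by 4 bases, and Nfix changed by 0.03 (adjusted p 0.845).
Tal1 (ENSMUSG00000028717.12; chromosome 4, 115056426 to 115071755, plus strand), which specifies blood stem cells and later red cells and platelets, was at 12.05, 11.95 and 11.91 in WT and 12.31, 12.11 and 12.05 in DM. The groups touched but did not overlap, since the highest WT and the lowest DM value both round to 12.05. The change was 0.19 (SE 0.0844, 95% interval 0.00 to 0.38, adjusted p 0.171), which did not pass.
The difference of Tal1 and Lyl1 within a library is free of library scaling. It was 0.96, 0.80 and 0.85 in WT and 1.56, 1.25 and 1.24 in DM, a shift of 0.48 toward Tal1. All 3 DM libraries were above all 3 WT libraries, which follows from the separate groups of Tal1 and Lyl1 given above. The exact permutation test (two-sided, p 0.1, adjusted p 0.3 over 3 such differences) therefore adds no support of its own. No design of 3 against 3 can go below p 0.1 in that test. Tal2, a close paralog singled out after its values were seen, was 5.67 ± 0.0509 in WT and 5.95 ± 0.0461 in DM (0.28, limma adjusted p 0.0194). Its call was lost without WT replicate 1 (0.26), DM replicate 1 (0.27) or DM replicate 2 (0.26).

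Lmo2 (ENSMUSG00000032698.15; chromosome 2, 103957986 to 103981878, plus strand), the bridge of the complex, was at 10.72, 10.70 and 10.58 in WT and 10.35, 10.56 and 10.42 in DM. The DM libraries were all lower, DM replicate 2 by little. The change was -0.22 (SE 0.0772, 95% interval -0.40 to -0.05, limma adjusted p 0.0866), which did not pass. It did pass after quantile normalization (-0.31, adjusted p 0.0139) and after centring each library on its median (-0.26, adjusted p 0.0379). Its paralog Lmo1, singled out after its values were seen and much less abundant, fell from 5.94 ± 0.0687 to 5.44 ± 0.157 (-0.50, adjusted p 0.00706), and this call held in all 13 alternatives.
Of 27 partner genes of these complexes (LDB1 and SSBP adaptors, E proteins, ETO and RUNX proteins, corepressors, coactivators and small Mafs), 2 passed the test as higher and 1 as lower, which is 11.1%, near the 13.9% of all tested genes. For 13 of these genes (48.1%) WT and DM values were separate, against 35.8% of all tested genes. Their median change was 0.09, and -0.02 after quantile normalization. The 2 higher were Maff and Bach1, given above. The 1 lower was Ssbp3, a stabilizer of LDB1 (-0.24, limma adjusted p 0.0322), which was lost without WT replicate 1 (-0.27), WT replicate 3 (-0.22), DM replicate 1 (-0.26), DM replicate 2 (-0.24) or DM replicate 3 (-0.23), and when the filter on the mean was dropped (adjusted p 0.112). The other 24 changed by between -0.18 and 0.22.

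Gata2 and Gata1 differed by less than the spread between replicates. Gata2 (ENSMUSG00000015053.14; chromosome 6, 88193891 to 88207032, plus strand) was at 14.40, 14.24 and 14.24 in WT and 14.53, 14.03 and 14.25 in DM. The DM libraries included both the highest and the lowest value. The change was -0.02 (SE 0.122, 95% interval -0.29 to 0.25, limma adjusted p 0.915).
Gata1 (ENSMUSG00000031162.14; chromosome X, 7959260 to 7978071, minus strand) was at 10.23, 10.05 and 10.31 in WT and 10.53, 10.16 and 10.19 in DM. DM replicate 1 was the highest, and the other DM libraries lay among the WT ones. The change was 0.10 (SE 0.108, 95% interval -0.14 to 0.34, adjusted p 0.572), and -0.02 without DM replicate 1. Changes inside these intervals could not be told from none.
The difference Gata1 minus Gata2, which tracks the replacement of one factor by the other, was -4.17, -4.19 and -3.94 in WT and -4.00, -3.87 and -4.06 in DM. The groups overlapped, with a shift of 0.12 (two-sided exact permutation p 0.3, adjusted p 0.45). The difference between Gata1 and Spi1, which encodes the opposing myeloid factor PU.1, was -2.73 ± 0.237 in WT and -2.77 ± 0.327 in DM (n = 3 each, two-sided exact permutation p 0.9, adjusted p 0.9). Spi1 itself was at 12.92 ± 0.121 in WT and 13.07 ± 0.127 in DM (limma adjusted p 0.317).
Zfpm1 (ENSMUSG00000049577.15; chromosome 8, 122282141 to 122337251, plus strand), which encodes the GATA cofactor FOG1, was at 9.09, 9.14 and 9.61 in WT and 9.52, 9.62 and 9.18 in DM. WT replicate 3 stood with the higher DM libraries and DM replicate 3 with the lower WT ones. The change was 0.16 (SE 0.149, 95% interval -0.17 to 0.49, adjusted p 0.504), with no call in any alternative. Leaving out a library moved it between 0.06 (WT replicate 1) and 0.32 (WT replicate 3, adjusted p 0.115), and gave 0.07 for DM replicate 2 and 0.29 for DM replicate 3. Quantile normalization gave 0.09.

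**Figure D4:**
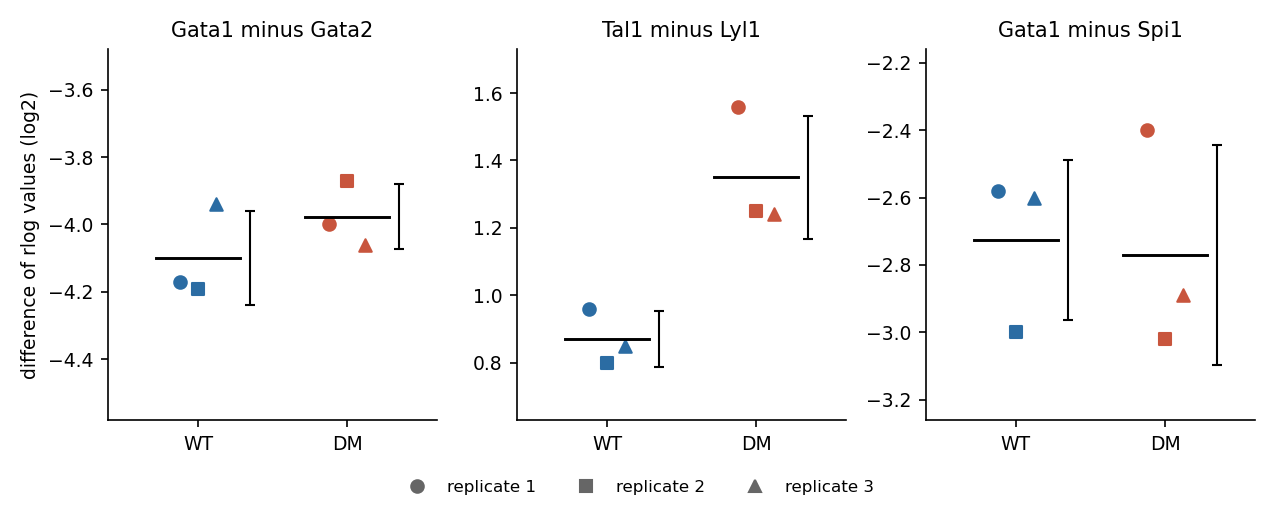
Points give the difference between the rlog values of 2 genes in 1 library (log2), with the group mean as a line and the SD as a bar, on axes of equal span. Only Tal1 minus Lyl1 separates the DM libraries (1.24 to 1.56) from the WT libraries (0.80 to 0.96), which follows from the separate groups of each gene.

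Klf1 and most red cell genes were highest in WT replicate 3. Klf1 (ENSMUSG00000054191.9; chromosome 8, 84901928 to 84905291, plus strand) was at 6.04, 5.95 and 6.80 in WT and 5.94, 6.08 and 5.84 in DM. WT replicate 3 stood alone, and the other 5 libraries spanned 5.84 to 6.08. The change was -0.31 (SE 0.187, 95% interval -0.72 to 0.11, limma adjusted p 0.298), and -0.04 without WT replicate 3 (adjusted p 0.812).
Among 34 tested erythroid genes (globins, haem synthesis, membrane proteins and other known targets of GATA1, TAL1 and KLF1), 26 (76.5%) had their highest value in WT replicate 3, against 24.8% of all tested genes. DM replicate 3 was the lowest library for 22 of them (64.7%), against 13.3% of all tested genes. Slc4a1, the band 3 anion exchanger, was at 7.88, 7.26 and 8.46 in WT and 7.62, 7.27 and 7.01 in DM (-0.57, limma adjusted p 0.175). Over the 13 alternatives its change ran from -0.87 to -0.27. It passed in 1 of them, without WT replicate 2 (-0.87, limma adjusted p 0.0202). It peaked in WT replicate 3, as did Alas2, the first enzyme of erythroid haem synthesis, at 6.43 against 5.59 to 5.96 in the other 5. Both genes were picked as examples after their values were seen.
The list median was -0.15, with 28 of 34 genes lower in DM. Without WT replicate 3 it was -0.02, with 21 of 34 lower. Leaving out DM replicate 3 gave -0.08, and leaving out WT replicate 1 or WT replicate 2 gave -0.24 and -0.27. By the test, against 13.9% of all tested genes, 3 of the 34 genes (8.82%) were called. These were Mt2, a metallothionein (0.86, limma adjusted p 0.00651), Bcl2l1, which encodes the survival protein BCL-XL (0.46, adjusted p 0.00636), and E2f2, a cell cycle regulator (-0.46, adjusted p 0.0225). E2f2 was lost without DM replicate 1 (-0.37) or DM replicate 3 (-0.49). None of these 3 is restricted to red cells. Mt2 made up 44.6% of the summed linear level of the list, and log2 of that sum was 15.22 to 15.39 in WT and 15.57 to 15.76 in DM, opposite in direction to the median. The alpha globin genes Hba-a1 and Hba-a2 (means -1.97 and 0.37) were below the level tested, Hbb-bh1 was listed at 0, and the globin copies are near identical, so that their counts are uncertain.

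**Figure D5:**
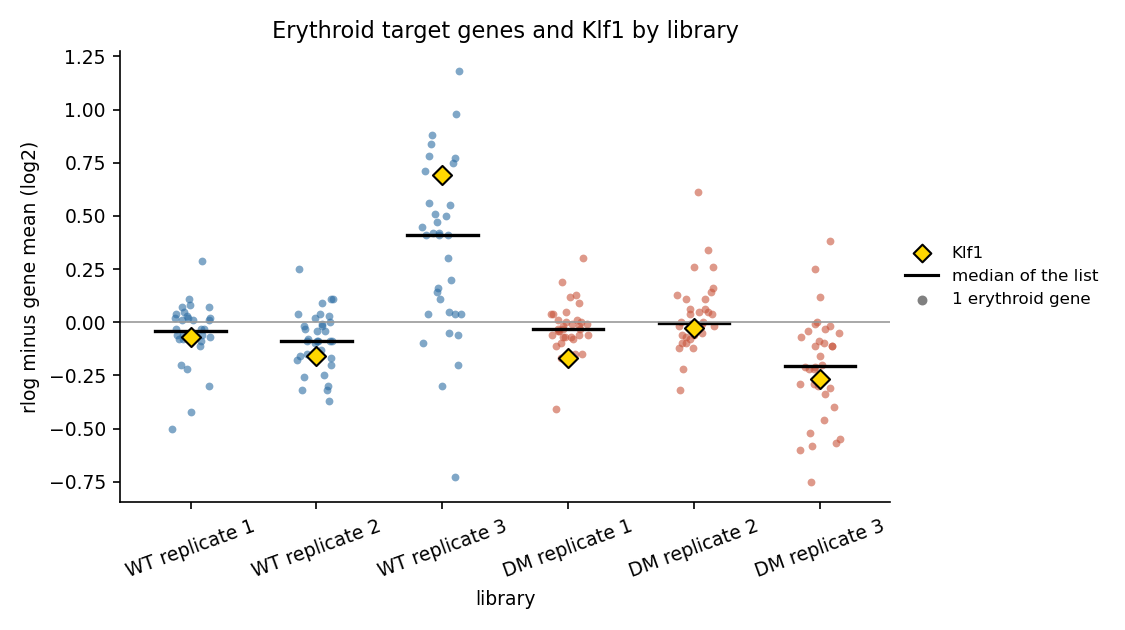
Dots give the rlog value of each of 34 erythroid genes minus its mean over the 6 libraries (log2), lines the median of the list and diamonds Klf1. The median is 0.41 in WT replicate 3 and between -0.20 and 0.00 in the other 5 libraries, and Klf1 follows it.

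Gfi1b (ENSMUSG00000026815.14; chromosome 2, 28609450 to 28621982, minus strand) was at 8.47, 8.31 and 8.65 in WT and 8.76, 8.49 and 8.30 in DM. The groups overlapped throughout (0.04, SE 0.123, 95% interval -0.24 to 0.31, limma adjusted p 0.86), and the sign turned after quantile normalization (-0.01) and without WT replicate 2 (-0.05) or DM replicate 1 (-0.08). Its paralog Gfi1, which acts in neutrophil precursors, was at 10.51, 10.52 and 10.12 in WT and 8.83, 8.60 and 9.10 in DM. Every DM library was lower (-1.54, SE 0.139, adjusted p 0.000306), in all 13 alternatives as well.
Gfi1 belongs to a list of 38 relatives of the 10 regulators in the GATA, TAL, KLF, LMO, FOG, GFI, CNC, ETS and ID families. Of 32 tested, 14 (43.8%) passed, against 13.9% of all tested genes, 10 higher and 4 lower. The 4 lower calls held in all 13 alternatives, but of the higher calls only that of Klf4 did. Trps1, Klf6, Klf10, Nfe2l1, Nfe2l2, Ets2 and Id2 were lost after quantile normalization, and Tal2 and Id3 with some libraries left out. The list median was 0.09 (0.01 after quantile normalization). Klf5, which acts in epithelia and in granulocyte formation, fell from 9.56, 10.05 and 10.29 to 8.86, 9.14 and 9.16 (-0.91, limma adjusted p 0.00768). Klf4, a factor of monocyte formation, rose from 10.06, 10.49 and 9.98 to 10.71, 11.26 and 10.92 (0.78, adjusted p 0.0114). Both calls held in all 13 alternatives. Of the GATA-type relatives, Trps1, a repressor that binds GATA motifs and was named after its values were seen, rose (0.36, adjusted p 0.0241). Its call was lost without WT replicate 1 (0.30), DM replicate 2 (0.40) or DM replicate 3 (0.29), without the filter (adjusted p 0.05) and after quantile normalization (0.26, adjusted p 0.0572). Gata3, Gata4 and Gata6 did not pass, with differences from -0.13 to 0.15.

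Fli1 was at 12.67, 12.69 and 12.58 in WT and 12.61, 12.57 and 12.50 in DM. The DM mean was slightly lower and the groups overlapped (-0.09, SE 0.0706, 95% interval -0.25 to 0.07, limma adjusted p 0.411). After quantile normalization it was -0.22 (adjusted p 0.0177). Fli1 (ENSMUSG00000016087.13; chromosome 9, 32422204 to 32542861, minus strand) spans other annotated genes, none of which overlaps its exons. Another ETS gene, Ets1, fell from 10.94, 11.21 and 11.40 to 10.33, 10.18 and 10.35 (-0.90, SE 0.110, adjusted p 0.00168), in all 13 alternatives as well. Erg, the closest relative of Fli1, was at 11.10, 10.94 and 10.90 in WT and 10.86, 10.56 and 10.64 in DM (-0.29, adjusted p 0.0622). Its groups did not overlap, and it passed in 6 of 13 alternatives, such as quantile normalization (-0.39, adjusted p 0.0212). It was named after its values were seen.
Of 21 tested megakaryocyte genes, many of them targets of GATA1, FLI1 and NF-E2, 3 passed, all 3 higher. This share of 14.3% is near the 13.9% of all tested genes. The list median was 0.17, against 0.01 over all tested genes. These were Plek, the platelet protein pleckstrin (0.58, limma adjusted p 0.00664), Gp1ba, a subunit of the von Willebrand receptor (0.55, adjusted p 0.017), and Vwf, its ligand (0.54, adjusted p 0.00667). Gp1ba was lost without DM replicate 2 (0.53) and after quantile normalization (0.45). With a library left out the list median ran from 0.06 (DM replicate 2) and 0.07 (WT replicate 2) to 0.28 (WT replicate 3), and after quantile normalization it was 0.09. Itga2b (CD41), named after its values were seen, was at 13.27 ± 0.155 in WT and 13.49 ± 0.200 in DM (adjusted p 0.243).

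Other gene groups that the network serves or competes with had the following values, and their part in the results above was not tested. Of 14 mast cell and basophil genes 2 passed (14.3%, near the 13.9% of all tested genes), Hpgds, the haematopoietic prostaglandin D synthase, higher (0.47, limma adjusted p 0.0113) and Hdc, histidine decarboxylase, lower (-0.62, adjusted p 0.0457). Hdc was lost without WT replicate 2 (-0.67), WT replicate 3 (-0.45), DM replicate 2 (-0.43) or DM replicate 3 (-0.67). It was also lost when the filter on the mean (adjusted p 0.0617) or the mean-variance trend (adjusted p 0.0587) was dropped and after median centring (adjusted p 0.0505). The list median was 0.10 and had no stable sign: it was -0.12 after quantile normalization, and with a library left out it ran from -0.04 (DM replicate 1) and 0.03 (WT replicate 2) to 0.22 (WT replicate 1), with 0.19 for DM replicate 2 or DM replicate 3. Of 10 eosinophil genes 3 (30%) passed, against 13.9% of all tested genes, all 3 lower. They were the granule protein genes Epx (-1.46, adjusted p 0.000118), Prg3 (-1.29, adjusted p 0.000118) and Prg2 (-1.16, adjusted p 0.00381). The list median was -0.25, with 8 genes lower in DM and 2 higher, Ear2 (0.29) and Ear6 (0.15). Genes that did not pass changed by between -0.62 and 0.29.
Of 19 other lineage regulators 8 (42.1%) passed, against 13.9% of all tested genes, 4 higher and 4 lower. The largest changes were in Cebpe (-1.74, limma adjusted p 0.000157), Gfi1, Bcl11a (-0.71, adjusted p 0.00271) and Myb (-0.65, adjusted p 0.0127), which act in granulocytes, in lymphoid cells and globin silencing, and in progenitors. Myb was lost without DM replicate 2 (-0.57) or DM replicate 3 (-0.60). The 4 higher were Irf8 (0.56, adjusted p 0.016), Mitf (0.52, adjusted p 0.00293), Mecom and Cebpb (0.46, adjusted p 0.0309), named after their values were seen. Of these, Mitf held in all 13 alternatives, Mecom in 12, Irf8 in 10 and Cebpb in 8. Some called genes were counted again elsewhere, Gfi1 among the relatives above, and Myb and Mecom among the stem and progenitor markers below.
Markers of other cells were read beside Nfe2 and Lyl1, and their shares stand against 13.9% of all tested genes. Of 15 neutrophil markers 11 (73.3%) passed, all 11 lower, led by Mpo (-4.23), Elane (-3.96), Prtn3 (-3.37) and Fcnb (-2.31). Mmp8 went the other way (0.50, limma adjusted p 0.0521), with libraries that did not overlap. The call of Ltf (-1.28) was lost without any library but WT replicate 1, after median centring and without the trend. That of Ctsg (-0.63) was lost without WT replicate 1, WT replicate 2, DM replicate 2 or DM replicate 3. Log2 of their summed linear level was 18.65 to 19.10 in WT and 17.34 to 18.17 in DM. Of 14 monocyte and macrophage markers 11 (78.6%) passed, 9 higher and 2 lower, led by Ly6c2 (-1.13), Ctss (0.96), Gpnmb (0.96) and Cd68 (0.94). Their list median was 0.59, and the summed level was 18.29 to 18.98 in WT and 19.27 to 19.64 in DM. Lyz2 alone made up 62.7% of that sum. Its call (0.86) was lost without WT replicate 1 (0.81), WT replicate 3 (0.71) or DM replicate 2 (0.73). Mrc1 (0.64) was lost without these libraries or DM replicate 3, and after quantile normalization. Of 7 lymphoid markers 3 (42.9%) passed, Nkg7 (-1.89) and Cd79b (-0.27) lower and Il7r (0.79) higher, while 6 of the 7 had a lower mean in DM and the list median was -0.10. The summed level, 11.49 to 12.14 in WT and 12.34 to 12.52 in DM, ran opposite to that median, and Il7r made up 92.3% of it. Cd79b was lost without DM replicate 1 (-0.27) or DM replicate 2 (-0.26). Of 14 stem and progenitor markers 4 (28.6%) passed, Procr (0.73) and Mecom (0.52) higher and Myb and Flt3 (-0.30) lower, with a summed level of 15.63 to 15.87 in WT and 15.71 to 16.03 in DM. Mecom was lost without DM replicate 2 (0.53), and Flt3 with any library but WT replicate 2 left out (-0.30 to -0.23). Flt3 held in only 3 of 12 alternatives, being lost also without the filter (adjusted p 0.0685), without the trend (adjusted p 0.0692), after quantile normalization (adjusted p 0.0944) and after median centring (adjusted p 0.0674). Of 20 proliferation genes 17 (85%) passed, all 17 lower, led by Cdc20 (-0.66), Plk1 (-0.61), Aurka (-0.60) and Kif11 (-0.55), and the summed level was 16.45 to 16.61 in WT and 16.07 to 16.25 in DM. Mki67 made up 35.3% of that sum, and its call was lost without WT replicate 1 (-0.40), DM replicate 2 (-0.39) or DM replicate 3 (-0.35). Calls of Mcm3, Mcm5 and Mcm6 were also lost with some libraries left out.

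Genes with the pattern most like a member were taken as those with the smallest Euclidean distance between centred values over the 6 libraries, among 11976 genes with a mean of at least 6. For Nfe2, whose own distance from a flat pattern was 0.738, they were Gm7694 (distance 0.106), Rbm38 (0.157), an RNA-binding protein, and Mbnl3 (0.16), a splicing regulator. These genes changed by -0.61, -0.67 and -0.54. For Lyl1, at 0.372 from a flat pattern, they were Mxd3 (0.0396), a MYC network repressor, Dsn1 (0.0508), a kinetochore subunit, and Cacnb2 (0.0619), a calcium channel subunit, with changes of -0.28, -0.28 and -0.29. For Gata1, at 0.365 from a flat pattern, they were Clec10a (0.0802), a macrophage lectin, Cdkn2a (0.112), a cell cycle inhibitor, and Acsbg1 (0.114), an acyl-CoA synthetase. These 3 were all highest in DM replicate 1, as Gata1 was, and did not pass the test. Over 6 libraries such likeness is a description of the values.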

How the data were processed

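The deposited file gave 1 rlog value per gene and library on the log2 scale, a unit read from the authors' file name and from the values. The submitters' processing notes name cutadapt 2.6, STAR 2.7.3, DESeq2 1.30.0 and mm10 without roles; the counting tool, its use of strand and the annotation are not given in the sources used here. rlog shrinks low values, so any change of a weakly expressed gene such as Klf1 may be understated, by an amount that was not measured. Depth is unknown and counting error cannot be given.

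The 142699 lines repeated each gene once per transcript and were merged to 55487 genes. Gene IDs matched GENCODE M21 with their version for 98.1% and without it for 99.5%, Lyl1 and Klf1 among the latter. Groups came from the sample titles, which carry replicate numbers. Genes with a mean of at least 3 were tested with limma 3.58.1 (lmFit, eBayes with a mean-variance trend, no covariates) in R 4.3.3, DM against WT over all 6 libraries, two-sided, with Benjamini-Hochberg adjustment over 18766 genes and calls at an adjusted p under 0.05. limma was used because a table without counts cannot feed a count model. Differences between members within a library were tested by exact permutation over the 20 assignments of 6 libraries to 3 and 3. The fit was tested on simulated data.

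The members and gene lists were chosen with earlier results of these data known. Named genes are all 10 members, Mllt3, Spi1, up to 4 genes past the threshold with the largest change per list, and the 3 genes most like Gata1 and each member past the threshold; further names are markers that check the cells, or were chosen after their values were seen. Some items are not reported here. Set tests were not used; lists are described by counts and medians. Alternatives were no filter, a mean of at least 5, no trend, quantile normalization, median centring, protein-coding genes only, a replicate block and each library left out. Plots used matplotlib 3.10.9.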

Additional observations from a re-analysis of the deposited data

How the results depend on the processing

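Nfe2 kept its direction and call in all 13 alternatives. The number of members called, 2 as reported, was 1 without the filter on the mean, 4 after quantile normalization and from 1 to 2 with a library left out; 1 was left without WT replicate 1, DM replicate 1, DM replicate 2 or DM replicate 3. Over all genes the calls numbered 2611, and from 1119 (without DM replicate 2) to 3475 (without WT replicate 2) with a library left out, including 1185 without WT replicate 1 and 1537 without DM replicate 3. Of these calls 66.1% were higher in DM, against 51.3% after quantile normalization, and 51.9%, 53.7% and 53.4% with WT replicate 1, WT replicate 3 or DM replicate 2 left out. Small changes turned sign: Gata1 ran from -0.02 to 0.16, Gata2 from -0.15 to 0.10 and Gfi1b from -0.08 to 0.15 with a library left out, and Gfi1b was -0.01 after quantile normalization. Gata1 minus Spi1, -0.05 as reported, ran from -0.23 to 0.08 with a library left out and was 0.00 after quantile normalization; the cause was not tested. Gata1 minus Gata2 (0.07 to 0.20) and Tal1 minus Lyl1 (0.38 to 0.54) kept their sign in every alternative run. For Tal1 minus Lyl1 with a library left out, the sign follows from the separate groups of both genes.

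With the replicate number as a block (replicate block), 4 members were called (Nfe2, Lyl1, Lmo2 and Tal1) and 3742 genes. The numbers were not shown to pair the libraries: deviations of WT and DM libraries with numbers 1, 2 and 3 correlated at 0.49, 0.12 and 0.04 across genes, and WT replicate 3 correlated best with DM replicate 2 (0.12).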
